A study of Homo sapiens with 16 samples.

Results

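The androgen dihydrotestosterone (DHT) was compared with no added androgen in Ver, a VCaP line kept under an antiandrogen drug, over 4 of the 16 libraries of a polyA RNA sequencing study. The 4 libraries were chosen by their source labels: 2 Ver DHT libraries (1 nM DHT for 24 h) and 2 Ver control libraries. VCaP is an established human prostate cancer cell line, and Ver is 1 subline of it that had been kept for 4 months in 1 µM enzalutamide, a drug that blocks androgen signalling at the receptor. All Ver libraries share this history, the controls included, and all cells were starved for at least 48 h in medium without phenol red, with serum stripped of steroids by charcoal. For comparison, 2 Ver DHT plus enzalutamide libraries were set against 2 Ver enzalutamide libraries (1 µM drug for 24 h), and 2 Vc DHT libraries against 2 Vc control libraries, with the same DHT dose and time throughout. Vc is the matching line, kept for 4 months in ethanol. The labels do not say whether the libraries of a group came from separate cultures, so p-values measure only the spread between libraries, which may be technical. They give 1 sequencing lane to all Ver libraries and another to all Vc libraries, so that a difference between the lines cannot be told apart from lane.

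Androgens are steroid hormones whose receptor, once bound, enters the nucleus and turns genes on or off. In the luminal cells of the prostate this programme drives secreted proteases of the kallikrein family, lipid synthesis and the large secretory apparatus behind seminal fluid, while it restrains genes that work when androgen is scarce. VCaP carries a fusion that puts ERG, an oncogenic transcription factor gene, under the androgen-driven promoter of TMPRSS2. In secretory cells, unfolded protein in the endoplasmic reticulum is sensed by branches named for ATF6, for IRE1 with XBP1, and for PERK with ATF4, that raise chaperones, export machinery and amino acid supply.

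Gene totals of the 4 libraries ran from 9733719 to 11968431 counts. All 11 luminal markers had counts in every one of them, while the basal markers KRT5 and TP63, the stromal and endothelial markers COL1A2, PDGFRA, DES and CDH5 and the immune markers CD3D, CD3E, MS4A1 and TYROBP had no counts in any of the 4. Summed over each list without TMM scaling, the 11 luminal markers came to 11140 and 10620 CPM (counts scaled to a common library total) with DHT and 12280 and 12640 in controls, the 10 basal markers came to 209 and 239 with DHT and 255 and 261 in controls, and the 12 immune markers to 1.33 and 1.62 with DHT and 5.55 and 5.49 in controls. The 14 stromal and endothelial markers came to 7.78 and 7.92 with DHT, against 70.3 and 63.6 in controls, and the proteoglycan gene LUM alone came to 0.752 and 1.11 with DHT and 60.6 and 52.6 in controls. The part of these markers in the results was not tested. Reads in no gene made up 45.28 and 45.59% of counted reads with DHT and 49.01 and 48.66% in controls, and the part of this in the results was not tested either.

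With TMM scaling nearly as many genes were called higher with DHT as lower, though more fell than rose by at least 2-fold. The share called higher grew with the level of the gene. Of 22553 genes tested, 4772 were called higher with DHT (21.2%) and 5164 lower (22.9%) at an adjusted p under 0.05 (edgeR quasi-likelihood test, Benjamini-Hochberg over all genes, n = 2 libraries a group); 15464 genes (68.6%) had DHT libraries that did not overlap the controls. At least a 2-fold rise was called for 1438 genes (6.38%) and at least a 2-fold fall for 2468 (10.9%), and at least a 4-fold change for 362 (1.61%) and 1003 (4.45%). The genes called higher took 59.6 and 60.3% of all gene counts with DHT, against 43.5 and 42.9% in controls. The genes called lower took 20.2 and 19.8% with DHT, against 33.8 and 34.2% in controls. These shares describe the called genes themselves and are no separate result. Of 14317 protein-coding genes tested, 28.8% were called higher and 28.3% lower, so lists of such genes have a higher background than all genes tested. Among genes with a mean of at least 100 CPM (from here on also scaled by edgeR's TMM factors), 55% were called higher and 25.6% lower, whereas below 0.5 CPM 2.38% were called higher and 17% lower; power to call a gene also grows with its counts. Scaling to library totals in place of TMM moved the median log2 change of all genes by -0.19 and gave 3300 higher and 7021 lower genes, so that 32% of calls were higher, against 48% with TMM.

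**Figure D1:**
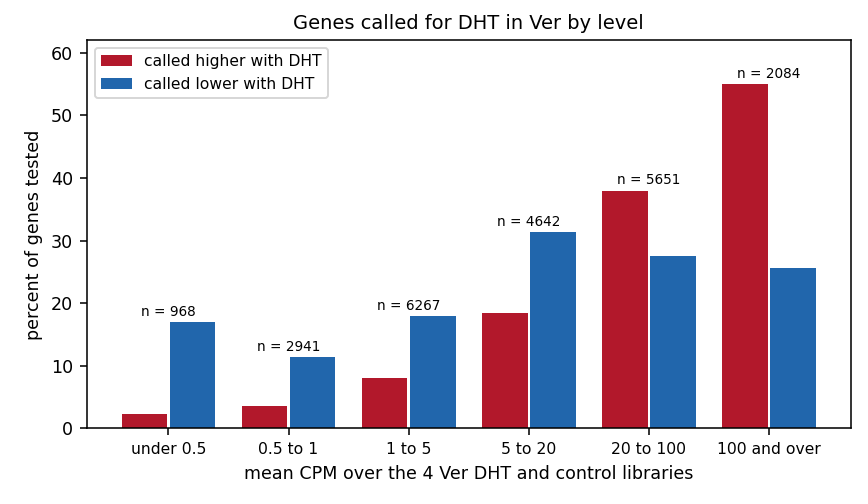
Percent of tested genes called higher (red) and lower (blue) with DHT in Ver, by mean CPM over the 4 Ver DHT and control libraries, with the number of genes in each range printed above. The share called higher climbs to 55% in the most abundant range, while the share called lower peaks at 31.3% between 5 and 20 CPM.

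Known androgen-induced genes rose for the most part. Of 59 tested members of this list, 52 were called higher and 4 lower, with a median log2 change of 1.46, beside 21.2% and 22.9% of all genes tested and a median of -0.04. FKBP5, which encodes a co-chaperone that acts on steroid receptors, had 1711 and 1845 CPM with DHT, against 69.0 and 74.1 CPM in controls, a log2 change of 4.63 (SE 0.08, adjusted p = 1.24e-29). STEAP4 (ENSG00000127954, chromosome 7, 88270892 to 88306891, minus strand), a metalloreductase gene, had 76.5 and 84.2 CPM with DHT, against 0.194 and 0.268 CPM in controls. Both genes were high in both DHT libraries, with no overlap, and the controls held 5 reads of STEAP4 in all, so that the size of its change rests on few reads. TMPRSS2, a membrane protease gene, had 702 and 686 CPM with DHT and 159 and 162 CPM in controls (log2 2.11). ERG had 814 and 826 CPM with DHT and 240.4 and 233 CPM in controls (log2 1.79, SE 0.05). The kallikrein protease gene KLK2 had 5546 and 5262 CPM with DHT, against 2490 and 2605 CPM in controls (log2 1.08). The prostate-specific antigen gene KLK3 had 87.2 and 86.7 CPM with DHT, against 39.2 and 36.9 CPM in controls (log2 1.19). KLK2 and KLK3 thus rose by smaller factors than FKBP5, which rose 24.9-fold. LIFR, a cytokine receptor gene, had 448 and 519.7 CPM with DHT and 108 and 117 CPM in controls, and SPDEF, an epithelial transcription factor gene, had 845 and 815 CPM with DHT and 213 and 213 CPM in controls. NDRG1, a stress-responsive gene, reached 5857 and 5845 CPM with DHT, against 1617 and 1697 CPM in controls. HIPK2, a kinase gene with a role in the DNA damage response, had 2589 and 2640 CPM with DHT, against 657 and 644 CPM in controls (log2 2.01, adjusted p = 6.61e-81), although it is in none of the lists. Members of the androgen-induced list also fell: ADAM7, a gene of epididymal tissue, had 3.03 and 5.17 CPM with DHT and 22.3 and 22.0 CPM in controls, and PTGER4, a prostaglandin receptor gene, had 4.73 and 3.88 CPM with DHT and 8.63 and 9.39 CPM in controls.

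**Figure D2:**
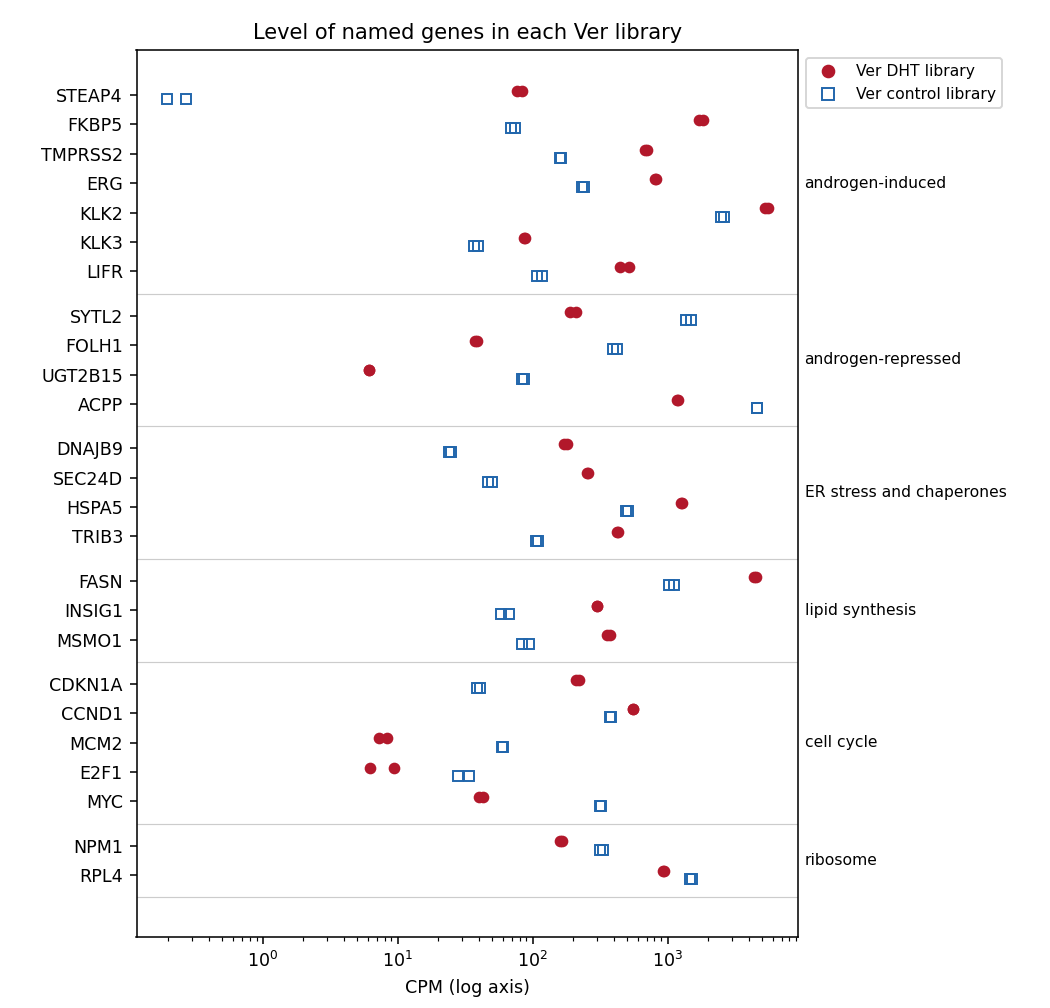
CPM (log axis) of 25 genes in each Ver DHT library (red circles) and each Ver control library (open blue squares), grouped by role. In every gene shown the circles and squares do not overlap, as was so for 68.6% of all genes tested. STEAP4 stands at 76.5 and 84.2 against 0.194 and 0.268 CPM, and RPL4 at 925 and 939.9 against 1478 and 1514 CPM.

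Genes that androgen is known to repress fell for the most part. Of 27 tested, 22 were called lower and 4 higher, with a median log2 change of -2.31, beside 22.9% and 21.2% of all genes tested. SYTL2, a vesicle-trafficking gene, had 191 and 208 CPM with DHT, against 1484 and 1378 CPM in controls (log2 -2.84, SE 0.05, adjusted p = 1.3e-91). FOLH1, which encodes the prostate-specific membrane antigen, had 37.5 and 38.7 CPM with DHT and 425 and 395 CPM in controls (log2 -3.43). Both DHT libraries were far below both controls for each gene. ACPP, the prostatic acid phosphatase gene, had 1175 and 1186 CPM with DHT and 4565 and 4572 CPM in controls. DDC, an aromatic amino acid decarboxylase gene, had 7.49 and 4.43 CPM with DHT and 73.2 and 77.1 CPM in controls, and SI, the sucrase-isomaltase gene, had 10.4 and 15.5 CPM with DHT and 101 and 93.7 CPM in controls. Against the list, SOX9, a developmental transcription factor gene, rose to 106 and 107 CPM with DHT, against 18.9 and 19.2 CPM in controls (log2 2.48). UGT2B11 was called higher at 4.46 and 5.72 CPM with DHT, against 1.55 and 2.15 CPM in controls, but close paralogs may take some of its reads, and its adjusted p was 0.0582 without Ver DHT replicate 2 and 0.0565 without Ver control replicate 1.

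Genes that make or inactivate androgens were more often lower than higher, with 11 called lower and 6 higher of 28. Beside these counts, 22.9% of all genes were lower and 21.2% higher, and 28.3% and 28.8% of protein-coding genes. Library totals gave 12 members lower and 3 higher. UGT2B15, whose enzyme conjugates DHT for removal, had 6.15 and 6.18 CPM with DHT and 86.7 and 83.5 CPM in controls, a log2 change of -3.78. UGT2B10, a close paralog with which reads can be shared, had 0.713 and 0.277 CPM with DHT and 12 and 10.7 CPM in controls. AKR1C3, which makes active androgens from weaker ones, had 15.9 and 13.2 CPM with DHT and 71.5 and 73.1 CPM in controls (log2 -2.31). RDH11, a retinol dehydrogenase gene, had 153 and 142 CPM with DHT and 299 and 295 CPM in controls. Among the risers, HSD17B4, a peroxisomal enzyme gene, had 269 and 281 CPM with DHT and 153 and 141 CPM in controls.

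Luminal identity genes stayed expressed, and lineage factors moved in both directions. Of 37 prostate lineage factors tested, 19 were called higher and 9 lower, with a median of 0.24, while library totals gave 13 higher and 12 lower, with a median of 0.05. With TMM, the shares over all genes tested were 21.2% higher and 22.9% lower. CREB3L4, a transcription factor gene of secretory prostate cells, had 301 and 279.8 CPM with DHT and 106 and 109 CPM in controls, and ZBTB16, a zinc-finger repressor gene, had 404 and 409 CPM with DHT and 139.9 and 148 CPM in controls. The luminal keratin gene KRT8 had 974 and 937 CPM with DHT and 418 and 415 CPM in controls (log2 1.20). Its partner KRT18 had 396 and 401 CPM with DHT and 148 and 145 CPM in controls; the 2 genes share 525 exon bases on opposite strands in GENCODE release 29, where unstranded reads could not be assigned. PGR, the progesterone receptor gene, went the other way at 1.16 and 0.831 CPM with DHT, against 6.01 and 3.76 CPM in controls. NR3C1, the glucocorticoid receptor gene, had 12.8 and 10.1 CPM with DHT and 12.6 and 9.21 CPM in controls and was not called (log2 0.07, adjusted p = 0.801); the groups overlap.

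Most genes of each branch of the unfolded protein response rose with DHT. Every one of the 41 tested genes of the IRE1 and XBP1 arm was called higher (median log2 1.54, range 0.59 to 2.84), as were 31 of 36 ATF6 arm and chaperone genes (median 1.13) and 27 of 30 ATF4 arm genes (median 1.41). Beside these counts, 21.2% of all genes tested were called higher and 22.9% lower. The list medians kept their sign with library totals as the scaling. DNAJB9 (ENSG00000128590, chromosome 7, 108569568 to 108574850, plus strand), a co-chaperone of the endoplasmic reticulum and a classic XBP1 target, had 179 and 171 CPM with DHT, against 24.7 and 24.1 CPM in controls (log2 2.84, SE 0.09, adjusted p = 2.56e-68). SYVN1, the ubiquitin ligase of endoplasmic reticulum degradation, had 601 and 582 CPM with DHT and 179 and 191 CPM in controls. SSR3, part of the translocon-associated complex, had 766 and 783 CPM with DHT and 206 and 194 CPM in controls. For all 3 genes the libraries of each group lay close together and far from the other group. HSPA5 (ENSG00000044574, chromosome 9, 125234853 to 125241330, minus strand), the main chaperone of the compartment, had 1283 and 1267 CPM with DHT, against 514 and 492 CPM in controls (log2 1.34, SE 0.05, adjusted p = 7.16e-58). HYOU1, a chaperone that exchanges its nucleotide, had 1315 and 1286 CPM with DHT and 385 and 392 CPM in controls (log2 1.74). The disulfide isomerase gene PDIA4 had 1023 and 971 CPM with DHT and 356 and 345 CPM in controls, and P4HB had 1408 and 1322 CPM with DHT and 483 and 493 CPM in controls. The ATF6 and chaperone list also held 2 genes that fell: FKBP7, a minor chaperone, had 0.446 and 0.554 CPM with DHT and 3.10 and 3.49 CPM in controls, and CREB3L1, a membrane-bound transcription factor gene, had 4.19 and 4.61 CPM with DHT and 9.02 and 10.8 CPM in controls. In the ATF4 arm, TRIB3, a pseudokinase gene that restrains AKT, had 433 and 422 CPM with DHT and 105 and 109 CPM in controls (log2 1.99), and the tRNA synthetase genes GARS and WARS had log2 changes of 1.52 and 1.66. SHMT2, the mitochondrial serine hydroxymethyltransferase gene, had 667 and 615 CPM with DHT and 211 and 209 CPM in controls.

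Some promoters of these genes hold letters that the response is known to read.
The endoplasmic reticulum stress element, read by ATF6 with NF-Y, was searched on both strands as CCAAT and CCACG with any 9 bases between them, in RefSeq promoters of GRCh38.p14, each 300 bases from 250 before to 50 after the start site; 12519 of the tested genes matched the promoter table.
The letters were in 22 of 27305 promoters (0.0806%), in 14 of the 12413 distinct promoters of tested genes (0.113%), in 6 of 34 promoters of the ATF6 and chaperone list (17.6%) and in 3 of 37 of the XBP1 arm (8.11%).
Below are 3 of them, with the element in capitals: HSPA5 (chr9:125241294-125241593, minus strand), the best known case, CRELD2 (chr22:49918384-49918683, plus strand), a secreted stress protein, and SERP1 (chr3:150546447-150546746, minus strand), which stabilises new membrane proteins.
HSPA5: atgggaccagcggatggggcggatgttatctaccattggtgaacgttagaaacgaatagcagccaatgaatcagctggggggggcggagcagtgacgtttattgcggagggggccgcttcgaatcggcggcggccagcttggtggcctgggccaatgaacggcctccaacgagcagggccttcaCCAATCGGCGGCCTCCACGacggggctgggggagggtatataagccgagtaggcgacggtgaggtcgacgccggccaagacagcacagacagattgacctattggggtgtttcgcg
CRELD2: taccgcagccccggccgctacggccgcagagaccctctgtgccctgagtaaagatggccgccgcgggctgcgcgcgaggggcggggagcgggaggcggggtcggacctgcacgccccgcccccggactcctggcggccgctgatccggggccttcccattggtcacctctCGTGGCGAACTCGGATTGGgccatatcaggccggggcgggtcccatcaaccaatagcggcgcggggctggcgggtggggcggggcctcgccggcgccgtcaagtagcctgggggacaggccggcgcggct
SERP1: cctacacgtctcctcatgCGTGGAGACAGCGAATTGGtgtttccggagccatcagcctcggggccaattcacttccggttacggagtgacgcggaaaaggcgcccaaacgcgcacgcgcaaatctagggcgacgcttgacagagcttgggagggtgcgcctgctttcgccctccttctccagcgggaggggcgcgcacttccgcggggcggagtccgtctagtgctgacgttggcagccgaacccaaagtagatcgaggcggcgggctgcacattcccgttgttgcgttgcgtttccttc
In HSPA5 the element stands 66 bases before the start, in CRELD2 80 and in SERP1 232, counted from the first base of the match; where it lies on the other strand the capitals read CGTGG first and ATTGG last.
A match describes the letters and does not show a used site.

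The 14 tested genes whose promoter holds the element were chosen for this match after values were seen. Of these, 12 rose with DHT, 1 fell and 1 was not called. Among the risers, HSPA5, HSP90B1, CALR, CANX, ERO1B, XBP1, SERP1 and CRELD2 belong to the ATF6 or XBP1 lists above, and CRELD2 to both. Their rise is thus no separate result from that of the lists. Over all 12519 tested genes with a promoter 28.4% were higher and 27.8% lower. The 14 genes stand at 12 places in the genome, since CRELD2 shares 1 with ALG12 and SERP1 shares 1 with EIF2A across divergent start sites. CRELD2 had 119 and 124 CPM with DHT, against 35.5 and 37.9 CPM in controls (log2 1.73). FICD, which modifies the HSPA5 protein, had 97.8 and 100.1 CPM with DHT, against 17.9 and 20.8 CPM in controls (log2 2.35). SERP1 had 656 and 653 CPM with DHT, against 220.0 and 186 CPM in controls (log2 1.69), and its divergent neighbour EIF2A, a translation initiation factor gene, had 74.4 and 72.3 CPM with DHT and 86.1 and 81.2 CPM in controls (log2 -0.19, adjusted p = 0.0253). The shared element thus stood beside 1 gene that rose and 1 that fell slightly. XBP1 itself had 390.0 and 399 CPM with DHT and 205 and 201 CPM in controls, and HSP90B1, the HSP90 of the endoplasmic reticulum, had 1693 and 1893 CPM with DHT and 845 and 761 CPM in controls. ZNF17, a zinc-finger gene, had 11.9 and 13 CPM with DHT and 12.2 and 9.93 CPM in controls and was not called. The hormone receptor half-site AGAACA was in 4 of 42 promoters of the androgen-induced list (9.52%), in 9.66% of promoters of all genes tested and in 14.9% of all promoters, within the same 300 bases.

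Genes of export from the endoplasmic reticulum and of sugar addition rose for the most part. Of 48 vesicle coat genes 44 were called higher and 1 lower (median 1.14). For the lists of this paragraph, the shares over all genes tested were 21.2% higher and 22.9% lower. SEC24D, a cargo-binding coat subunit, had 254 and 259 CPM with DHT, against 49.9 and 47.0 CPM in controls (log2 2.40). TMED9, a cargo receptor gene, had 463 and 429.5 CPM with DHT and 109.7 and 109 CPM in controls, and SEC16A, which organises exit sites, had 1117 and 1116 CPM with DHT and 439 and 455 CPM in controls. The exception was SEC31B at 11 and 12.5 CPM with DHT and 15 and 17.1 CPM in controls, whose call ended without Ver DHT replicate 1 (adjusted p = 0.144) and without Ver control replicate 2 (0.163). Of 75 glycosylation and sugar nucleotide genes 50 were higher and 10 lower (median 0.63). GMPPB, which makes GDP-mannose, had 124 and 134 CPM with DHT and 33.0 and 31.6 CPM in controls, and UAP1, which makes UDP-N-acetylglucosamine, had 209 and 233 CPM with DHT and 68.5 and 65.2 CPM in controls. GFPT1, the entry enzyme of the hexosamine pathway, had 899 and 942 CPM with DHT and 380.1 and 350.0 CPM in controls, while MAN1A1, a Golgi mannosidase gene, had 3.21 and 2.58 CPM with DHT and 9.21 and 8.41 CPM in controls. The plot of calls by list shows these groups at its upper end.

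**Figure D3:**
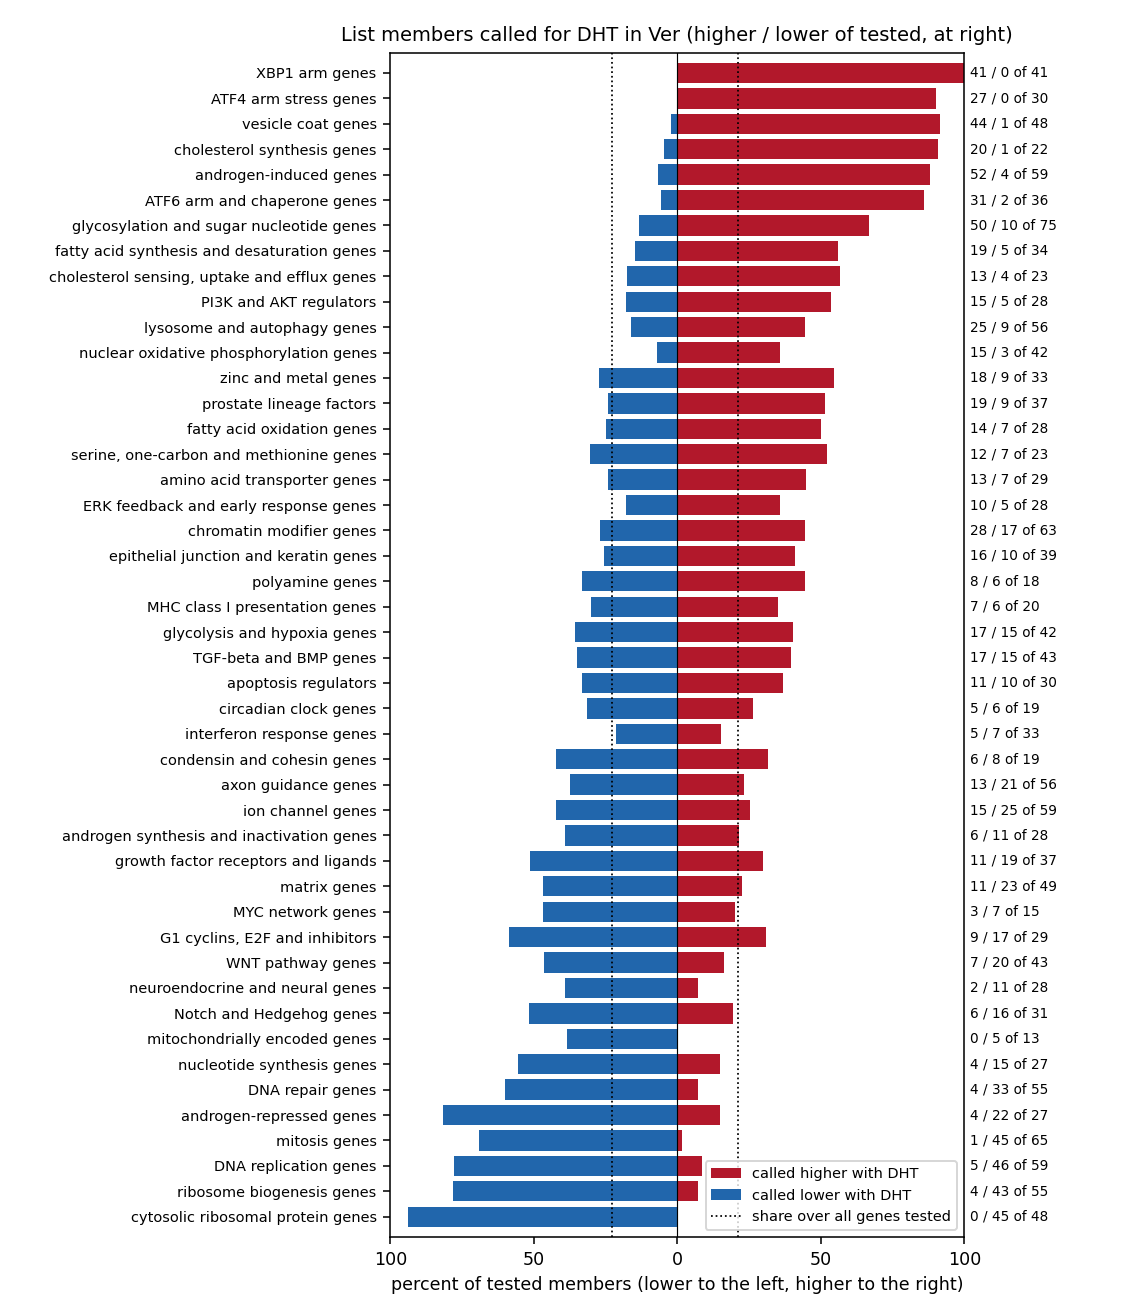
Percent of tested members called higher (red, to the right) and lower (blue, to the left) with DHT in Ver for 46 gene lists, with the counts printed at the right and dotted lines at the shares over all genes tested (21.2% higher, 22.9% lower). The XBP1 arm stands at 41 of 41 higher and the cytosolic ribosomal proteins at 45 of 48 lower.

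Most cholesterol synthesis genes rose, and fatty acid synthesis genes were more often called higher than lower. Of 22 cholesterol synthesis genes 20 were called higher, with a median log2 change of 1.12, and 1 lower. MSMO1, a sterol demethylation enzyme gene, had 356 and 375 CPM with DHT, against 93.7 and 83.8 CPM in controls (log2 2.04). HMGCS1, at the entry to the pathway, had 379.8 and 411 CPM with DHT and 127 and 115 CPM in controls. The 1 that was called lower, LBR, had 115.8 and 112 CPM with DHT and 135 and 124 CPM in controls; the call ended without Ver DHT replicate 2 (adjusted p = 0.106) and without Ver control replicate 1 (0.29). Of 23 genes of cholesterol sensing, uptake and efflux 13 rose and 4 fell. INSIG1, which restrains the sterol sensor, had 298 and 298 CPM with DHT and 66.8 and 58.6 CPM in controls. The efflux pump gene ABCA1 had 2.67 and 3.6 CPM with DHT and 8.24 and 10.2 CPM in controls, and the receptor gene LRP8 had 9.63 and 6.92 CPM with DHT and 38 and 39.2 CPM in controls. For ABCA1 and LRP8 both DHT libraries lay below both controls. Of 34 fatty acid synthesis and desaturation genes 19 rose and 5 fell (median 0.40), or 17 and 7 with library totals. FASN, the fatty acid synthase gene, had 4552 and 4342 CPM with DHT, against 1029 and 1114 CPM in controls (log2 2.05, SE 0.04, adjusted p = 3.65e-81). The desaturase genes FADS1 and FADS2 rose by log2 1.96 and 2.02, and the elongase gene ELOVL5 by 1.91. DBI, which encodes an acyl-CoA binding protein, had 266 and 286 CPM with DHT and 18.7 and 24.4 CPM in controls (log2 3.67). ACACB, the mitochondrial acetyl-CoA carboxylase gene, fell to 5.08 and 4.89 CPM with DHT, against 17.1 and 16.3 CPM in controls, and DGAT2, of triglyceride synthesis, to 9.63 and 12.6 CPM with DHT, against 34.1 and 42.8 CPM in controls. Fatty acid oxidation was mixed, with 14 of 28 genes higher and 7 lower. For all lists of this paragraph, the shares over all genes tested were 21.2% higher and 22.9% lower.

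Genes of DNA replication and mitosis fell, though the cyclin gene CCND1 and the cell cycle inhibitor gene CDKN1A rose. CDKN1A (ENSG00000124762, chromosome 6, 36676460 to 36687339, plus strand) had 222 and 211 CPM with DHT, against 40.8 and 38.5 CPM in controls (log2 2.45, SE 0.07, adjusted p = 1.05e-67). CCND1, whose product starts the cycle, had 556 and 559 CPM with DHT and 382 and 377 CPM in controls (log2 0.56). E2F1, a transcription factor that opens S phase, had 9.45 and 6.28 CPM with DHT and 27.9 and 33.5 CPM in controls (log2 -1.96), and E2F3 had 37.4 and 41.4 CPM with DHT and 125 and 123 CPM in controls. Of 29 G1 cyclin, E2F and inhibitor genes 17 were lower and 9 higher; 11 were lower without Ver control replicate 2. Of 59 DNA replication genes 46 were called lower and 5 higher (median -1.05), and 33 of them fell at least 2-fold. For both lists, the shares over all genes tested were 22.9% lower and 21.2% higher, and 10.9% fell at least 2-fold. The helicase subunit gene MCM2 (ENSG00000073111, chromosome 3, 127598223 to 127622436, plus strand) had 7.22 and 8.30 CPM with DHT, against 59.6 and 60.2 CPM in controls (log2 -2.95, SE 0.14, adjusted p = 1.2e-48). MCM5 had 7.49 and 7.84 CPM with DHT and 44.7 and 42.1 CPM in controls, and UHRF1, which copies DNA methylation, had 4.73 and 5.08 CPM with DHT and 34.3 and 32.6 CPM in controls. The 2 groups were well apart in each. ORC5, of the origin recognition complex, rose to 69.2 and 69.8 CPM with DHT, against 46.8 and 45.6 CPM in controls. GINS3 was also called higher, at 4.99 and 5.35 CPM with DHT and 3.30 and 3.04 CPM in controls, but with an adjusted p of 0.0493 that was 0.0768 with DESeq2, 0.163 with library totals and up to 0.193 with a library left out.

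Of 65 mitosis genes 45 were called lower and 1 higher (median -0.63), beside 22.9% and 21.2% of all genes tested. MYBL2, a transcription factor gene of late cell cycle genes, had 9.27 and 11 CPM with DHT and 35.3 and 35.7 CPM in controls. MAD2L1, of the spindle checkpoint, had 4.28 and 3.6 CPM with DHT and 14.2 and 14.5 CPM in controls. CENPM, a centromere protein gene, had 1.52 and 1.48 CPM with DHT and 10.1 and 9.66 CPM in controls. The 1 that rose was CENPN (ENSG00000166451, chromosome 16, 81006498 to 81033114, plus strand), another centromere protein gene that is also in the androgen-induced list, with 42.2 and 43.7 CPM with DHT, against 14.4 and 15.8 CPM in controls (log2 1.5, SE 0.13, adjusted p = 1.55e-22). It shares 457 exon bases (12.8%) with CMC2 on the other strand. In the same way NCAPD3 (ENSG00000151503, chromosome 11, 134150119 to 134225454, minus strand), a subunit of condensin, rose to 1476 and 1558 CPM with DHT, against 98.2 and 93.9 CPM in controls (log2 3.98), while the condensin genes SMC2, NCAPH and NCAPG2 fell, with log2 changes of -0.89, -1.81 and -0.58. NCAPD3 shares 465 exon bases with JAM3 and 249 with VPS26B. Of 55 DNA repair genes 33 were lower and 4 higher, beside 22.9% and 21.2% of all genes tested. BRCA1, of homologous recombination, had 7.76 and 12.6 CPM with DHT and 28.7 and 28.4 CPM in controls, and XRCC2 had 5.17 and 7.11 CPM with DHT and 24.2 and 24.1 CPM in controls. LIG4, the ligase of end joining, had 33.4 and 35.8 CPM with DHT and 12.6 and 8.95 CPM in controls. Fewer cells in cycle and less RNA of these genes per cell cannot be told apart in such bulk libraries, for these or any other genes.

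The promoters of cell cycle genes carry the letters of 2 well known regulators, E2F and the DREAM complex, and 3 are shown because one gene fell, one was not called and one rose; MCM6 and PLK1 were chosen after their values were seen.
Capitals mark the E2F letters TTTGGCGC in MCM6 (chr2:135876394-135876693, minus strand), a helicase subunit gene, and the cell cycle homology region TTTGAA with the CCAAT box CCAAT in PLK1 (chr16:23678639-23678938, plus strand), a mitotic kinase gene, and in CENPN (chr16:81006964-81007263, plus strand), where CCAAT stands on the other strand as ATTGG; other copies of CCAAT in these windows are left in lower case.
MCM6: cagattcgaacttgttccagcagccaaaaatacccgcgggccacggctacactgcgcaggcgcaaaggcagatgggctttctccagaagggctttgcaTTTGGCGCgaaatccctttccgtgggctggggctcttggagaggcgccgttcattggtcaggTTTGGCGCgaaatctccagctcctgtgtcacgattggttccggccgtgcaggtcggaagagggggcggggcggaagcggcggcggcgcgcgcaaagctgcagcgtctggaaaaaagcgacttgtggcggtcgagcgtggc
PLK1: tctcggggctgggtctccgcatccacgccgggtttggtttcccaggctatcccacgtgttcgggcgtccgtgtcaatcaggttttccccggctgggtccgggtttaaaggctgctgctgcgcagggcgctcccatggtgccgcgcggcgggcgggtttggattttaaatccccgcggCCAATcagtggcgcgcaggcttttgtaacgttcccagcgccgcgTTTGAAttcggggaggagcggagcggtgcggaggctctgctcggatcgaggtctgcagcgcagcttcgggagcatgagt
CENPN: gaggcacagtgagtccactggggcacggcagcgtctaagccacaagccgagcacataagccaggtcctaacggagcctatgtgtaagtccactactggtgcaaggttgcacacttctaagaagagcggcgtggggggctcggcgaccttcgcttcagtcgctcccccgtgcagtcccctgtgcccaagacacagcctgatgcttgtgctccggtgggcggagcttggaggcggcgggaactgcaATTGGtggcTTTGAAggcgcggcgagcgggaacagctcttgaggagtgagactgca
Counted on both strands, TTTGGCGC was in 6 of 51 promoters of the replication list (11.8%), in 0.991% of promoters of all genes tested and in 0.659% of all promoters, and TTTCCCGC in 12 of 51 (23.5%), 2.46% and 1.66%.
TTTGAA was in 36 of 55 promoters of the mitosis list (65.5%), in 10.1% of promoters of all genes tested and in 15.4% of all, and CCAAT in 41 of 55 (74.5%), 36.4% and 35.7%.
MCM6 fell by 2.0 on the log2 scale (SE 0.15), PLK1 was not called (log2 0.20, SE 0.22, adjusted p = 0.508), and CENPN, with the same kinds of letters as PLK1, rose.
Over all 126 tested genes with TTTGGCGC, 38 were higher with DHT and 36 lower, and over all 1257 with TTTGAA, 316 and 351, while 28.4% and 27.8% of all 12519 tested genes with a promoter were higher and lower.
In shares these were 30.2% higher and 28.6% lower for TTTGGCGC, and 25.1% and 27.9% for TTTGAA. Of 307 tested genes with TTTCCCGC, 80 were higher (26.1%) and 98 lower (31.9%). Of 4548 with CCAAT, 1433 were higher (31.5%) and 1174 lower (25.8%).

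MYC and most genes that build ribosomes fell. MYC, a transcription factor gene of growth, had 40.3 and 43.1 CPM with DHT, against 315 and 323 CPM in controls (log2 -2.93), and its neighbour PVT1, a long non-coding RNA gene, had 65.6 and 68.5 CPM with DHT and 139 and 141 CPM in controls. MXI1, a MYC antagonist, fell as well, to 4.46 and 2.86 CPM with DHT, against 31.8 and 39.1 CPM in controls (log2 -3.27), while MLX, a partner of related factors, rose to 48.0 and 46.5 CPM with DHT, against 17.2 and 19.9 CPM in controls. Of 55 ribosome biogenesis genes 43 were lower and 4 higher, with a median of -0.56. At least a 2-fold fall was called for 2 of them, beside 10.9% of all genes tested. For the lists of this paragraph, the shares over all genes tested were 22.9% lower and 21.2% higher. The nucleolar protein gene NPM1 had 159 and 165 CPM with DHT and 332 and 318 CPM in controls (log2 -1.0). NCL, nucleolin, had 135 and 144 CPM with DHT and 228 and 233 CPM in controls, and DKC1, of RNA pseudouridylation, had 45.7 and 45.0 CPM with DHT and 86.6 and 90.2 CPM in controls. The E box letters CACGTG, which MYC with MAX is known to bind, were in 17 of 46 promoters of this list (37%). They were in 9.76% of promoters of all genes tested and in 7.43% of all promoters. Over all 1216 tested genes with them 350 were higher (28.8%) and 344 lower (28.3%). The shares over all tested genes with a promoter were 28.4% and 27.8%. A part of MYC in these changes was not tested. Of 48 cytosolic ribosomal protein genes 45 were lower and none higher, all by less than 2-fold (range -0.69 to -0.08). RPL4 had 925 and 939.9 CPM with DHT and 1478 and 1514 CPM in controls (log2 -0.68), and RPS2 had 682 and 671 CPM with DHT and 1056 and 1118 CPM in controls; many of these genes have processed pseudogenes that can share reads. The elongation factor gene EEF2 had 2976 and 2864 CPM with DHT and 3933 and 4131 CPM in controls. Of 27 nucleotide synthesis genes 15 were lower and 4 higher. The purine enzyme gene IMPDH2 had 118 and 113 CPM with DHT and 243 and 247 CPM in controls, whereas its isozyme IMPDH1 had 164 and 151 CPM with DHT and 74.7 and 86.8 CPM in controls. ATIC, also of purine synthesis, had 18.2 and 20.1 CPM with DHT and 48.4 and 52.3 CPM in controls.

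Amino acid, polyamine and metal handling genes moved in both directions. Of 29 amino acid transporter genes 13 rose and 7 fell. For the lists of this paragraph, the shares over all genes tested were 21.2% higher and 22.9% lower. The neutral amino acid transporter gene SLC1A4 had 159 and 154 CPM with DHT and 33.0 and 29.9 CPM in controls (log2 2.32), and SLC1A5, a glutamine transporter gene, had 287 and 289 CPM with DHT and 99.2 and 106 CPM in controls. Of 23 serine, one-carbon and methionine genes 12 rose and 7 fell. PSAT1, of serine synthesis, had 305 and 319.9 CPM with DHT and 129 and 120.3 CPM in controls, and GNMT, which uses up methyl groups, had 21.0 and 20.2 CPM with DHT and 3.39 and 3.94 CPM in controls. CTH, of cysteine synthesis, had 3.83 and 2.77 CPM with DHT and 8.92 and 5.99 CPM in controls. Polyamines are abundant in prostate fluid, and of 18 polyamine genes 8 were called higher and 6 lower. Among the risers were the synthesis genes ODC1 and SMS and the breakdown genes SAT1 and SMOX, by log2 1.60, 1.34, 1.64 and 1.47. ODC1 had 240.4 and 236 CPM with DHT and 79.0 and 77.9 CPM in controls. ARG2, an arginase gene, had 11.5 and 12.4 CPM with DHT and 32.5 and 33.2 CPM in controls; 37.4% of its exon bases overlap VTI1B on the other strand. Zinc, which prostate cells store, is moved by transporters that went opposite ways. SLC39A7, which releases zinc from the endoplasmic reticulum, had 880.0 and 894 CPM with DHT and 219 and 222 CPM in controls (log2 2.01). SLC30A4, a vesicular zinc exporter, had 118 and 115.5 CPM with DHT and 381 and 388 CPM in controls (log2 -1.72). MT2A, a metallothionein gene, had 267 and 254 CPM with DHT and 96.7 and 88.7 CPM in controls.

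Energy metabolism genes moved in both directions, with smaller changes in oxidative phosphorylation than in glycolysis and hypoxia genes. Over all genes tested 21.2% were called higher and 22.9% lower, and 6.38% and 10.9% by at least 2-fold. Of 42 nuclear oxidative phosphorylation genes 15 were higher and 3 lower, none at least 2-fold, with a median of 0.15 that turned to -0.04 with library totals (5 higher, 12 lower); 9 were higher without Ver DHT replicate 1. Of 13 mitochondrially encoded genes 5 were called lower and none higher, and the number called ran from 2 without Ver DHT replicate 1 to 12 with library totals. MT-CO1, a cytochrome oxidase gene, had 5828 and 5893 CPM with DHT and 6697 and 6587 CPM in controls (log2 -0.18). Glycolysis and hypoxia genes split, with 17 of 42 higher and 15 lower (14 and 20 with library totals); 6 rose and 5 fell at least 2-fold. VEGFA, an angiogenic growth factor gene, had 327 and 337 CPM with DHT and 106 and 100.3 CPM in controls, and HK1, a hexokinase gene, had 269 and 267 CPM with DHT and 134 and 129 CPM in controls. PFKM, a phosphofructokinase gene, had 40.6 and 38.9 CPM with DHT and 114 and 119 CPM in controls, and LDHB, a lactate dehydrogenase gene, had 125 and 134 CPM with DHT and 272 and 272 CPM in controls. The glucose transporter gene SLC2A3 had 9.54 and 10.2 CPM with DHT, against 0.194 and 0.358 CPM in controls (log2 5.09, SE 0.66).

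Among signalling genes, ligands and receptors of several families fell. WNT2, a secreted WNT ligand gene, had 0.981 and 1.11 CPM with DHT, against 82.0 and 85.4 CPM in controls (log2 -6.31, SE 0.31, adjusted p = 3.36e-72). HGF, the hepatocyte growth factor gene, had 2.76 and 3.51 CPM with DHT, against 45.7 and 49.2 CPM in controls (log2 -3.92). BMP7, a bone morphogenetic protein gene, had 4.64 and 3.6 CPM with DHT, against 37.0 and 42.9 CPM in controls (log2 -3.27). In all 3 the control libraries were high and the DHT libraries at or below a few CPM. The Hedgehog ligand gene SHH had 4.19 and 3.32 CPM with DHT and 26.0 and 26.3 CPM in controls, IHH had 5.26 and 4.52 CPM with DHT and 24.9 and 24.3 CPM in controls, and their receptor gene PTCH1 had 20.5 and 16.8 CPM with DHT and 52.4 and 58.4 CPM in controls. Counted by list, 20 of 43 WNT pathway genes were lower and 7 higher, and 16 of 31 Notch and Hedgehog genes lower and 6 higher. Of 37 growth factor and receptor genes 19 were lower and 11 higher. For these and the other lists of this paragraph, the shares over all genes tested were 22.9% lower and 21.2% higher. Risers in the same families were the WNT receptor genes FZD5, at 315 and 326 CPM with DHT and 78.9 and 78.9 CPM in controls, and FZD8, at 74.9 and 71.4 CPM with DHT and 22.3 and 22.4 CPM in controls. HES1, a Notch target gene, had 8.12 and 8.77 CPM with DHT and 1.94 and 2.59 CPM in controls. TGF-beta and BMP genes split 17 higher to 15 lower of 43, and 15 to 20 with library totals. GDF15, a stress cytokine gene, had 291 and 283 CPM with DHT and 40.9 and 41.7 CPM in controls (log2 2.80), and TGFB2 had 20.2 and 20.5 CPM with DHT and 3.20 and 2.77 CPM in controls. PMEPA1, which restrains TGF-beta signalling, had 2332 and 2286 CPM with DHT and 1026 and 1088 CPM in controls. The insulin-like growth factor binding protein genes IGFBP3 and IGFBP2 fell, with IGFBP3 at 70.6 and 54.5 CPM with DHT and 299 and 289 CPM in controls and IGFBP2 at 33.0 and 34.8 CPM with DHT and 154 and 157 CPM in controls. Of 28 PI3K and AKT regulators 15 rose and 5 fell, or 11 and 9 with library totals, with MTOR, a growth kinase gene, at 258 and 247 CPM with DHT and 125 and 150.0 CPM in controls.

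Matrix, axon guidance, ion channel and neural genes were more often lower than higher. The counts were 23 lower and 11 higher of 49 matrix genes and 21 and 13 of 56 axon guidance genes. They were 25 and 15 of 59 ion channel genes and 11 and 2 of 28 neuroendocrine and neural genes. Over all genes tested 22.9% were lower and 21.2% higher, and among those with a mean of 5 to 20 CPM 31.3% and 18.4%. LUM, which encodes the proteoglycan lumican and is a stromal marker, had 0.803 and 1.20 CPM with DHT, against 57.2 and 49.6 CPM in controls (log2 -5.73). The stromal markers COL1A2, PDGFRA and DES were at 0 in all 4 libraries, while others of that list held counts. Without TMM scaling, COL1A1 had 2.09 and 1.79 CPM with DHT and 2.05 and 1.99 CPM in controls. MYH11 had 3.43 and 2.81 CPM with DHT and 4.11 and 5.11 CPM in controls. HSPG2, the perlecan gene, had 41.9 and 39.4 CPM with DHT and 142 and 169 CPM in controls, and LAMB1, a laminin gene, had 393 and 390.0 CPM with DHT and 821 and 822 CPM in controls, while another laminin gene, LAMC1, had 498 and 489 CPM with DHT and 198 and 213 CPM in controls. LOX, which crosslinks collagen, rose to 38.1 and 40.0 CPM with DHT, against 2.71 and 2.68 CPM in controls (log2 3.85). SLIT1, a guidance ligand gene, had 19.7 and 18.9 CPM with DHT and 97.6 and 98.5 CPM in controls, and UNC5C, a guidance receptor gene, had 36.4 and 38.6 CPM with DHT and 5.92 and 5.72 CPM in controls. KCNMA1, a calcium-activated potassium channel gene, had 226 and 250.2 CPM with DHT and 49.2 and 51.2 CPM in controls. KCNJ3, an inward rectifier gene, had 7.76 and 7.01 CPM with DHT and 45.3 and 38.3 CPM in controls. PEG10, an imprinted gene derived from a retrotransposon, had 107 and 110.3 CPM with DHT and 355 and 352 CPM in controls, and ENO2, a neuronal enolase gene, had 5.35 and 3.23 CPM with DHT and 19.4 and 15.5 CPM in controls; SYP, the synaptophysin gene, had 14.7 and 16.3 CPM with DHT and 5.14 and 7.07 CPM in controls.

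The largest changes by fold were in genes nearly off in one group. CLEC3A, a lectin gene, held 1 read over both DHT libraries and 228 over both controls, a depth-scaled ratio of control over DHT of 267 with an exact 95% counting interval of 47.4 to 10600, which covers counting error only. ASZ1, a germ cell gene, had 0.0892 and 0.277 CPM with DHT and 19.8 and 25.1 CPM in controls. DOCK8, a guanine nucleotide exchange factor gene, had 23 and 22.9 CPM with DHT and 1.07 and 1.52 CPM in controls (log2 4.13), and WIPI1, of autophagy, had 19.7 and 21.2 CPM with DHT and 0.873 and 1.34 CPM in controls. BHLHA15, a transcription factor gene that builds secretory cells, had 47.9 and 50.1 CPM with DHT and 3.01 and 3.67 CPM in controls (log2 3.87, SE 0.21, adjusted p = 2.04e-39). The secreted protein gene AZGP1 had 21.1 and 19.6 CPM with DHT and 1.26 and 1.88 CPM in controls. Falls of this size were seen in BMX, a tyrosine kinase gene, at 0.981 and 0.646 CPM with DHT and 22.5 and 20.9 CPM in controls, in MCAM, a cell adhesion gene, at 0.624 and 0.461 CPM with DHT and 9.31 and 15.2 CPM in controls, and in KISS1R, the kisspeptin receptor gene, at 0.446 and 0.369 CPM with DHT and 9.89 and 14.2 CPM in controls. Several non-coding genes that rose lie inside strongly rising ones: SNORA40, a small nucleolar RNA gene, and AL033519.1 lie inside FKBP5, and AP001775.1 lies inside NCAPD3 on the other strand, so that unspliced host reads cannot be told apart from theirs. RNVU1-7, a small nuclear RNA gene among the 20 largest falls, had 4.28 and 4.52 CPM with DHT and 5.24 and 346 CPM in controls, and without Ver control replicate 2 its log2 change was -0.25 (adjusted p = 0.647).

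With enzalutamide present, the same DHT dose still raised most genes of the unfolded protein response, though many by less than without the drug. FKBP5, NCAPD3, MYC and many ribosome biogenesis genes also moved less. The contrast of DHT plus enzalutamide with enzalutamide alone, in 4 other Ver libraries, called 3321 genes higher (14.7%) and 2888 lower (12.8%). The difference between the DHT effects without and with the drug was called higher for 1688 genes (7.48%) and lower for 2079 (9.22%) in the same fit; library totals gave 2397 and 3997 for the effect with the drug (37.5% of calls higher, against 53.5% with TMM) and 1190 and 2639 for the difference (31.1%, against 44.8%). Of the 4772 genes that rose without the drug, 2634 (55.2%) were called higher with it, and of the 5164 that fell, 2253 (43.6%) were called lower. These genes were selected on the effect without the drug, and shares of such a selection show no difference by themselves.

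FKBP5 had 114 and 149 CPM with DHT plus enzalutamide, against 61.4 and 60.5 CPM with enzalutamide, a log2 change of 1.11 beside 4.63 without the drug (difference 3.52, SE 0.11, adjusted p = 5.13e-21). NCAPD3 had 122 and 162 CPM with DHT plus enzalutamide and 90.4 and 97.9 CPM with enzalutamide (log2 0.59 beside 3.98), and DOCK8 had 2.09 and 1.90 CPM with DHT plus enzalutamide and 1.5 and 2.36 CPM with enzalutamide (log2 0.02 beside 4.13). LIFR had 103 and 92.1 CPM with DHT plus enzalutamide and 119 and 123 CPM with enzalutamide, and so was lower with DHT there (log2 -0.31, adjusted p = 2.9e-05; difference 2.42). SPON2, a secreted matrix protein gene, was turned the other way: 2094 and 1979 CPM with DHT and 2650 and 2960 CPM in controls (log2 -0.46), but 3580 and 3416 CPM with DHT plus enzalutamide and 2576 and 2681 CPM with enzalutamide (log2 0.41; difference -0.87, adjusted p = 6.21e-23). MYC fell in both settings, with a log2 change of -0.59 with the drug and -2.93 without it (difference -2.34, adjusted p = 7.78e-56). Other genes responded by similar amounts. HSPA5 had 935 and 1004 CPM with DHT plus enzalutamide and 392 and 377 CPM with enzalutamide, a log2 change of 1.33 beside 1.34 without the drug; the difference was 0.01 (SE 0.07, adjusted p = 0.964). EIF4EBP1, a translation repressor gene, changed by log2 1.27 with the drug and 1.16 without it. The kallikrein gene KLK2 had 4795 and 4892 CPM with DHT plus enzalutamide and 2040 and 2031 CPM with enzalutamide, with log2 changes of 1.25 with the drug and 1.08 without it; the difference of -0.17 had an adjusted p of 0.0317, which was 0.0826 with RLE size factors and up to 0.212 with a library left out. PMEPA1 rose more with the drug than without it, with 1728 and 1848 CPM with DHT plus enzalutamide and 575 and 528 CPM with enzalutamide (log2 1.70 and 1.13, difference -0.57, adjusted p = 4.59e-13).

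By list, the median log2 effect of DHT was 0.75 with the drug and 1.46 without it for androgen-induced genes, and -1.17 and -2.31 for androgen-repressed genes. It was 0.02 and -0.56 for ribosome biogenesis, where 32 of 55 members were called for a difference, each with a lower log2 effect without the drug. Cholesterol synthesis had 1.06 and 1.12, with the effect called higher without the drug for 6 members and lower for 2, and mitosis -0.52 and -0.63, with 1 higher and 7 lower. For 30 ATF4 arm genes the effect was called higher without the drug for 15 and lower for 1. These counts were 10 and 2 of 36 ATF6 arm and chaperone genes and 35 and 0 of 48 vesicle coat genes. Over all genes tested the shares were 7.48% and 9.22%. All 41 XBP1 arm genes were also called higher with the drug (median 1.06), yet 28 of them rose more without it; SYVN1, for one, had a difference of 0.40 (adjusted p = 1.71e-05). Of the 14 genes whose promoter holds the stress element, 11 were called higher with the drug and 3 were not called. Over all genes tested 14.7% were called higher and 12.8% lower with the drug.

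**Figure D4:**
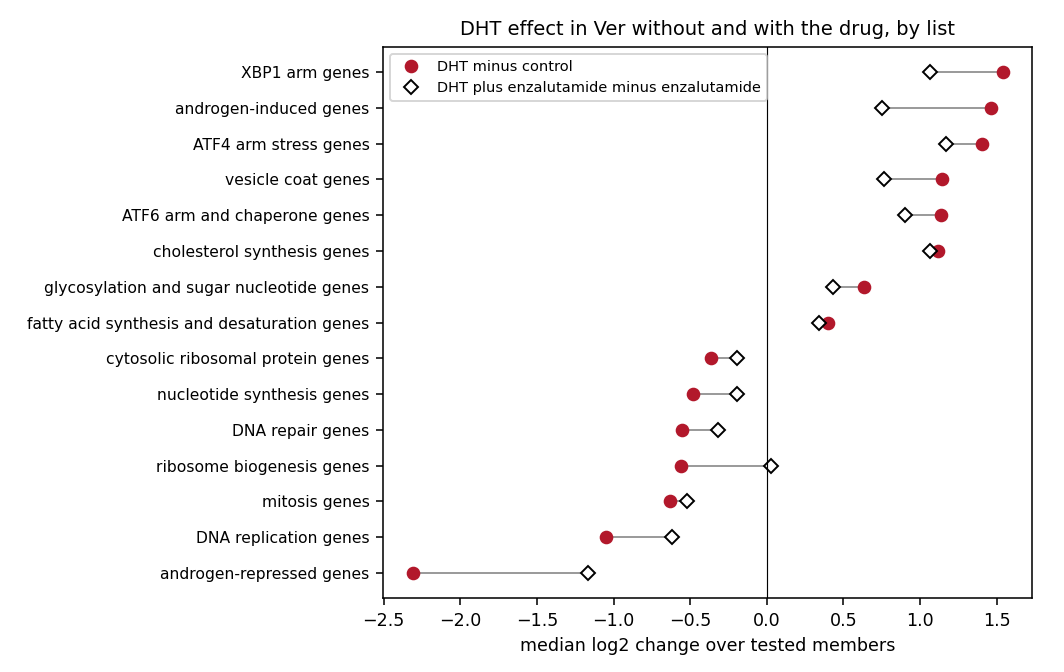
Median log2 change over the tested members of 15 lists for DHT minus control (red circles) and DHT plus enzalutamide minus enzalutamide (open diamonds) in Ver. The ribosome biogenesis diamond lies at 0.02 beside a circle at -0.56, while the cholesterol synthesis pair lies at 1.06 and 1.12.

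In Vc, the line not kept in the drug, most of the same genes responded. Of the 4772 genes called higher in Ver, 3915 (82%) were called higher in Vc, and of the 5164 called lower, 3825 (74.1%) were called lower there, in 4 other libraries; over all genes 21.8% were called higher and 22.5% lower in Vc. The difference between the lines was called higher in Ver for 201 genes (0.891%) and lower for 322 (1.43%); with each of the 8 libraries left out in turn these counts were 103 (without Ver control replicate 2) to 236 and 183 (without Vc DHT replicate 2) to 293. AKAP12, a kinase scaffold gene, rose in Ver, with 38.3 and 39.3 CPM with DHT and 18.9 and 20.4 CPM in controls, and fell in Vc, with 19.1 and 18.5 CPM with DHT and 32.6 and 31.3 CPM in controls (difference 1.74, SE 0.18, adjusted p = 2.06e-13). SULT1C2, a sulfotransferase gene, likewise rose in Ver, with 3.57 and 3.32 CPM with DHT and 0.970 and 1.52 CPM in controls, and fell in Vc, with 18.4 and 18.1 CPM with DHT and 22.5 and 25.1 CPM in controls (difference 1.83, adjusted p = 0.000138). SCGN, a calcium-binding protein gene, had 11.3 and 11.2 CPM with DHT and 9.70 and 8.05 CPM in controls in Ver, where it was not called, and 15.2 and 14.6 CPM with DHT and 37.3 and 38.6 CPM in controls in Vc, where it fell. MGP, a matrix protein gene, fell further in Ver, with 0.624 and 0.738 CPM with DHT and 16.7 and 17.6 CPM in controls, than in Vc, with 3.45 and 3.76 CPM with DHT and 26.6 and 23.5 CPM in controls (difference -1.83, adjusted p = 0.00144). TMEM117, a membrane protein gene, had 0.892 and 1.66 CPM with DHT and 9.70 and 10.2 CPM in controls in Ver, and 3.86 and 2.74 CPM with DHT and 6.47 and 6.37 CPM in controls in Vc (difference -2.02, adjusted p = 0.000455). The protease-activated receptor gene F2R and the cell adhesion gene DSCAM fell less in Ver, with log2 changes of -1.24 and -1.46, than in Vc, with -2.89 and -3.25 (differences 1.65 and 1.79, adjusted p = 2.48e-05 and 9.37e-06). ADAMTSL3, a matrix gene, fell more in Ver (log2 -2.74) than in Vc (-1.02), with a difference whose adjusted p was 0.00494, and 0.0726 without Vc DHT replicate 1. NR3C1 was called higher in Vc (log2 1.18) and not called in Ver; the difference of -1.10 had an adjusted p of 0.024, which was 0.0824 with DESeq2 and 0.0555 to 0.228 in the 6 leave-one-out fits that ended the call. Ribosome biogenesis genes had median log2 changes of -0.56 in Ver and -0.70 in Vc, and the log2 effect was called higher in Ver for 6 of 55 members and lower for none. Of 59 androgen-induced genes the effect was called higher in Ver for 7 and lower for 7, and of 30 ATF4 arm genes higher for none and lower for 5, beside the 0.891% and 1.43% of all genes. Of the XBP1 arm genes 1 was called higher and 1 lower in Ver, and no vesicle coat or mitosis gene was called for a difference between the lines.

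**Figure D5:**
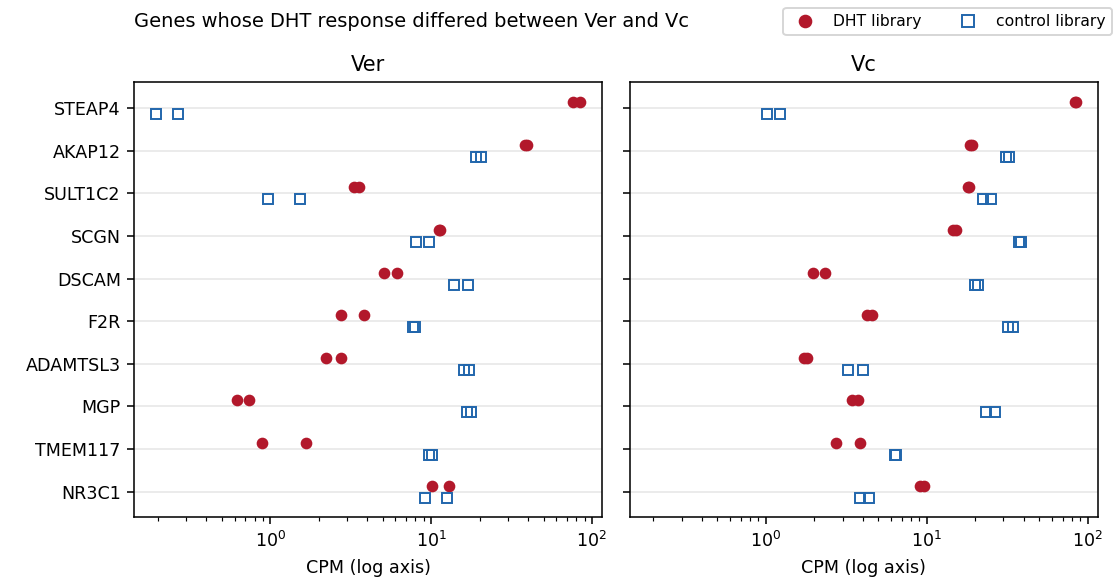
CPM (log axis) of 10 genes in each DHT library (red circles) and control library (open blue squares), with Ver in the left panel and Vc in the right. AKAP12 shows circles right of squares in Ver and left of them in Vc.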

How the data were processed

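Poly(A) RNA of 16 libraries in 8 groups of 2 had been sequenced. Per the submitters' processing notes, FastQC 0.11.7, Trimmomatic 0.36-5, HISAT2, SAMtools and HTSeq 0.11.1 were used with GRCh38; their settings are not given in the sources used here. The authors deposited a read count per gene for each library, named as an unstranded union-mode count, and a normalized signal table, which equals the counts divided by size factors within 0.1% and was used here for gene names only. Of 58302 gene lines in each library, 40888 held a count in at least 1 library; lines for reads in no gene or in several were left out of totals. The counts were fitted with edgeR 4.0.16 (R 4.3.3, limma 3.58.1): TMM scaling, its filter on low counts, a robust quasi-likelihood fit of all 8 groups with 8 residual degrees of freedom, and Benjamini-Hochberg adjustment over the 22553 genes kept, with calls at 0.05. The common biological coefficient of variation was 6.01%. The difference between DHT effects was tested as an interaction in the same fit. Alternatives were DESeq2 1.42.0, RLE size factors, library totals, no filter, fewer libraries in the fit, a replicate block and each library left out. Named genes were a fixed set, the largest changes, and from each list those of smallest adjusted p and those called against its direction; any other is said to be chosen after its values were seen. The comparison, the 46 gene lists and 4 marker lists were chosen with earlier results of these data known, so no list has a test. Promoter sequences are RefSeq's (GRCh38.p14), and exon overlaps are from GENCODE release 29. Some genes are not reported here.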

Additional observations from a re-analysis of the deposited data

Results flagged for a closer look

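The effect of DHT differed between Ver and Vc, by the interaction test, for 33 of the genes named above, with a higher log2 effect in Ver for 15 and a lower one for 18; line and sequencing lane cannot be told apart. The differences are Ver minus Vc on the log2 scale (edgeR quasi-likelihood test, Benjamini-Hochberg over all genes). AKAP12 (1.74) and SULT1C2 (1.83) went up in Ver and down in Vc, and SCGN (1.69) was called in Vc alone. Rises that were larger in Ver were those of STEAP4 (2.15), DBI (0.86), KCNMA1 (0.74), ZBTB16 (0.30) and ERG (0.29). Smaller rises in Ver were those of SAT1 (-0.50), SLC1A5 (-0.45), PMEPA1 (-0.35), FZD5 (-0.35), PSAT1 (-0.27) and LAMC1 (-0.26), and NR3C1 (-1.10) was called in Vc alone. Falls that were larger in Ver were those of TMEM117 (-2.02), MGP (-1.83), ADAMTSL3 (-1.72), WNT2 (-1.26), HGF (-1.18), IHH (-0.95), SI (-0.90), SLC30A4 (-0.78), RDH11 (-0.76), MCM2 (-0.63) and FOLH1 (-0.59). Smaller falls in Ver were those of DSCAM (1.79), F2R (1.65), SHH (1.0), ACPP (0.56), NCL (0.53), NPM1 (0.30) and PEG10 (0.30). At least 1 alternative ended the call of the difference for ADAMTSL3, ERG, FZD5, LAMC1, MCM2, NPM1, NR3C1, PEG10, PSAT1, SHH, STEAP4, WNT2 and ZBTB16; for STEAP4 the adjusted p was 0.0173, and 0.0622 with DESeq2.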

How the results depend on the processing

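Counts of genes called for DHT in Ver stayed within 1.5 times of 4772 higher and 5164 lower under the alternatives run, with 4164 to 4266 and 4243 to 4376 when 1 library was left out, and no named gene reversed a call. For the difference between lines, leaving out 1 library gave 103 to 236 genes higher and 183 to 293 lower, against 201 and 322. Library totals gave 5 oxidative phosphorylation genes higher (15 with TMM), 12 mitochondrially encoded genes lower (5), 12 interferon genes lower (7) and 16 chromatin modifiers higher (28). Leaving out 1 library gave 9 to 12 oxidative phosphorylation genes higher, 11 to 15 G1 genes lower (17), 2 to 5 mitochondrially encoded genes lower and 1 to 2 immune markers lower (2). Mitochondrially encoded genes lower were 3 with DESeq2 and 8 with the contrast's groups only, which also gave 1 stromal and 1 immune marker lower (2 each). The causes were not tested. Same-numbered Ver control and DHT libraries had a correlation of deviations of -0.122, so the numbers were not taken as pairs: the replicate block gave 4757 higher and 5155 lower genes, and 8 mitochondrially encoded genes and 7 PI3K and AKT regulators (5) lower. A crossed pairing, chosen after seeing the data, gave 4824 and 5217, and 9 mitochondrially encoded genes lower. Of single-gene values under alternatives, 4398 kept their side of the threshold, 226 lost it and 3 gained it. With 2 libraries a group, the size of change of genes with few reads is loosely set.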
